A study of Mus musculus with 2 samples.

Results

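The interferon response genes are a set of 39 genes that mouse cells are known to switch on after interferon, chosen by symbol. Of the 19059 genes in the count matrices, 37 were members of the set, and Mx1 and Mx2 were not analysed here. Mouse glioblastoma stem cells (mGSCs), Trp53+/- and Nf1+/-, were grown as tumors in the striatum of C57BL/6 mice, so the tumor cells of both groups carried both heterozygous losses. One group received vehicle and the other Xevinapant, an oral SMAC mimetic that antagonizes inhibitor of apoptosis proteins, and cells were isolated after a week of dosing. Each group was a single pool, planned as 4 tumors, with 4 deposited matrices of unique molecular identifier (UMI) counts from a probe-based kit for fixed cells. Pool and batch date followed the treatment, which means that treatment and batch cannot be told apart. The labels name total RNA for the vehicle pool and polyA RNA for the Xevinapant pool, and the deposited Xevinapant matrices bear the word vehicle in their names. The label of the sample was followed.

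Interferons are secreted cytokines that bind receptors on most cell types. Type I interferons signal through the kinases Jak1 and Tyk2 to a complex that holds Stat2 and Irf9, and interferon gamma signals through Jak1 and Jak2. The induced genes encode sensors of foreign RNA and DNA, proteins that block viral replication, the ubiquitin-like modifier Isg15 with its enzymes, and parts of the antigen processing machinery. In the brain, microglia and infiltrating macrophages can carry these genes at high levels.

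Some matrices of a group were so alike that they were joined and counted as 1 sample. Vehicle sample 1 was matrices 1 and 3, vehicle samples 2 and 3 were matrices 2 and 4, Xevinapant sample 1 was matrices 1 and 2, and Xevinapant sample 2 was matrices 3 and 4. In the 3 joined pairs, the squared difference of members in tumor cells had a median of 1.01 to 1.23 times its noise value. In the remaining 9 pairs of a group it was 13.6 to 427 times that value. The noise value came from the spread between cells, which holds biology as well as counting error. The joined pairs were not compared against counting error alone. Over 10737 to 10905 genes above a minimum level, the figure was 1.23 to 2.87 in the joined pairs, above that noise. It was 8.92 to 29.6 in the others. With each of the 8 matrices taken as 1 mouse, no member was called after Xevinapant in the 5 classes that could be fitted, T cells not among them. The labels do not tie a matrix to an animal, so p-values measure the spread between these 5 samples. Matrices held 4505 to 14728 barcodes and 71835789 to 300206053 UMIs. In all, 1413 cell barcodes were present both in a vehicle matrix and in the Xevinapant matrix of the same number, where the copy with more UMIs had a median of 161 to 172 times those of the other. Without these barcodes the count of members called after Xevinapant was also 0.

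Cells were assigned to classes by UMIs of marker genes, none of them a member of the set. This gave 38213 tumor cells, 868 microglia, 1344 macrophages and monocytes, 471 fibroblasts, 270 neutrophils, 159 endothelial cells, 115 T cells and 52 dendritic cells. Natural killer, B and mural cells reached 10 cells in at most 1 sample and were not compared. Below, a level is given in CPM, the UMI counts of a gene per 1000000 UMIs of a class in a sample, in the order vehicle samples 1, 2 and 3 and then Xevinapant samples 1 and 2. The kit counts probes, and genes have unequal probe numbers, so levels were compared between classes and samples. Where a member is named as giving the most UMIs of a class, the rank is one of probe counts, not of transcripts. UMIs of tumor markers were present in every class. The 8 tumor markers summed to 5592 to 7454 CPM in tumor cells, 405 to 678 CPM in microglia, 219 to 634 CPM in macrophages and monocytes, 184 to 704 CPM in fibroblasts and 261 to 847 CPM in endothelial cells.

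The promoters of some members share known elements. The interferon-stimulated response element (ISRE) is known to be bound by the complex with Stat2 and Irf9, and the gamma-activated site (GAS) is known from genes that respond to interferon gamma. RefSeq promoters in build GRCm38.p6, from 250 bases before the start to 50 after it, were found for 30 of the 39 genes. The ISRE letters GAAANNGAAA were present on either strand in 14 of 30, or 46.7%, in 40.7% of 86 promoters of further pathway genes and in 3.99% of 27025 promoters of all genes. The GAS letters TTCNNNGAA, which read the same on both strands, were present in 7 of 30, or 23.3%, in 20.9% of those of further pathway genes and in 9.55% of all. A match describes the sequence and is not a site shown to be bound. Windows of 30 bases are shown for members whose levels are described below, 5′ to 3′ on the strand of the gene, with the matching letters in capitals. The windows of Isg15, Ifit1 and Gbp3 hold the ISRE letters more than once, those of Ifit3 and Ifit3b are identical, those of Oas3 and Rsad2 hold a single match, and that of Irf1 holds the GAS letters.
Isg15 (chr4:156200871-156200900, minus strand): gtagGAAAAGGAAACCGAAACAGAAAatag
Ifit1 (chr19:34640784-34640813, plus strand): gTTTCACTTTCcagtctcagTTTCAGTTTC
Ifit3 (chr19:34583363-34583392, plus strand): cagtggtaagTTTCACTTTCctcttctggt
Ifit3b (chr19:34607759-34607788, plus strand): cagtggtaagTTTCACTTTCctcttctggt
Gbp3 (chr3:142559992-142560021, plus strand): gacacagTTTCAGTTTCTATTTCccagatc
Oas3 (chr5:120777715-120777744, minus strand): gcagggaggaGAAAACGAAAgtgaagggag
Rsad2 (chr12:26456553-26456582, minus strand): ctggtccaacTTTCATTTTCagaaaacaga
Irf1 (chr11:53769913-53769942, plus strand): aacagcctgatTTCCCCGAAatgatgaggc

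Ifit3 and Ifit3b are near-identical neighbors on chromosome 19, so the split of counts between them is uncertain.

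Tumor cells had the lowest interferon response score of the classes compared. The score is the mean over cells of ln(1 + UMIs per 10000 UMIs), averaged over the 37 genes. It averaged 0.137 ± 0.0518 (SD, n = 5) in tumor cells, 0.309 ± 0.0397 in fibroblasts, 0.449 ± 0.0579 in endothelial cells, 0.600 ± 0.138 in microglia and 0.619 ± 0.0964 in macrophages and monocytes. Over the samples with at least 10 cells it was 0.596 ± 0.0200 (n = 4) in T cells, 0.682 ± 0.184 (n = 3) in neutrophils and 0.684 ± 0.121 (n = 3) in dendritic cells. The highest tumor cell score, 0.187, lay below the lowest score of any other class compared, 0.271 in fibroblasts. The ranges of the immune classes overlapped one another, that of endothelial cells lay below those of T and dendritic cells, and that of fibroblasts overlapped with microglia alone. Depth differed between classes, with a median of 14012 UMIs in a tumor cell and 6386 in a microglial cell. With each cell thinned to 2000 UMIs, tumor cells scored 0.0760 ± 0.0407 in vehicle (n = 3) and 0.100 ± 0.0257 in Xevinapant (n = 2), and microglia 0.482 ± 0.168 and 0.491 ± 0.00898. This left out 3444 tumor cells and 121 microglia with fewer UMIs.

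**Figure D1:**
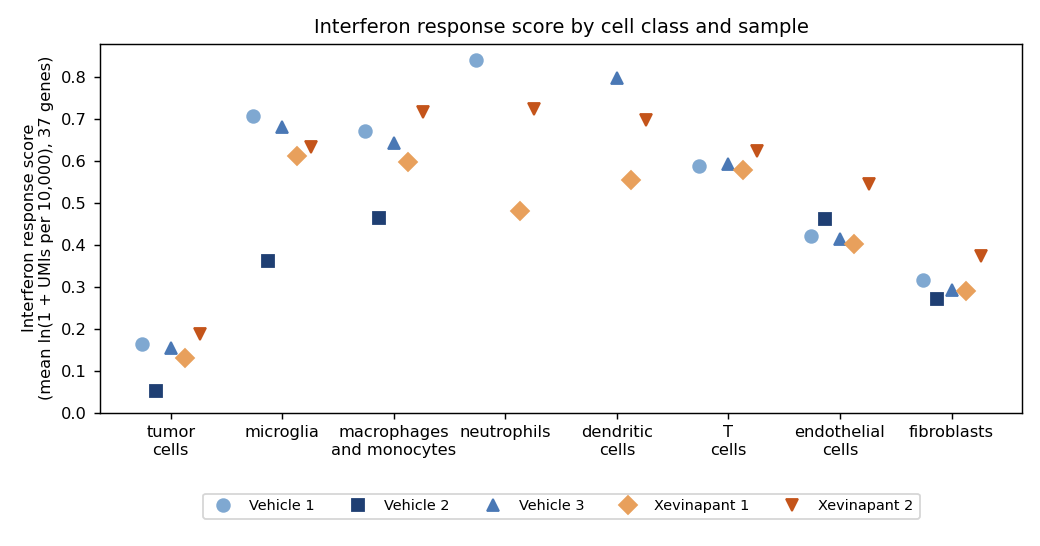
Interferon response score (mean ln(1 + UMIs per 10000) over 37 genes, y axis) in each cell class (x axis), 1 point per sample with at least 10 cells. Tumor cells lie at 0.0521 to 0.187, below the samples of every other class shown, and vehicle sample 2 (dark square) is lowest in tumor cells, microglia, macrophages and monocytes, and fibroblasts.

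To compare the levels of the members between classes, each class was set against the tumor cells of the same samples. This contrast cannot tell a response to interferon from the usual level of a gene in a cell type. All 37 members were higher in microglia and all 37 in macrophages and monocytes, by edgeR's quasi-likelihood test with the sample as a block at a Benjamini-Hochberg adjusted p under 0.05. Of all genes tested, 32.7% and 33.3% were called higher in these classes. The count was 36 of 37 in endothelial cells (all genes, 19.9%), 35 in neutrophils (18.2%), 35 in T cells (14%), 33 in dendritic cells (12%) and 29 in fibroblasts (27.2%). The members that did not pass were Cmpk2 in endothelial cells, Gbp3 and Ifi44 in both neutrophils and T cells, Ifit3b, Cmpk2, Gbp3 and Gbp7 in dendritic cells, and Ifit2, Rsad2, Cmpk2, Herc6, Irf7, Irf9, Gbp5 and Psmb9 in fibroblasts. No member was called lower in any class. The median log2 fold change of the members was 3.68 in neutrophils, 3.23 in macrophages and monocytes, 2.94 in microglia, 2.80 in T cells, 2.75 in dendritic cells, 2.64 in endothelial cells and 1.84 in fibroblasts. The median over all genes lay between -0.91 and -0.13. The tumor cells came from the grafted line and the other classes were taken as host cells, so class and genotype cannot be told apart. These comparisons were per UMI of a class, not per cell. Member UMIs per cell averaged 21.7 in tumor cells, 19.5 in neutrophils and 25.4 in T cells, at median depths of 14012, 1403.5 and 2027 UMIs. They averaged 36.8 in fibroblasts, 39.5 in endothelial cells, 44.0 in dendritic cells, 59.0 in macrophages and monocytes and 65.8 in microglia.

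**Figure D2:**
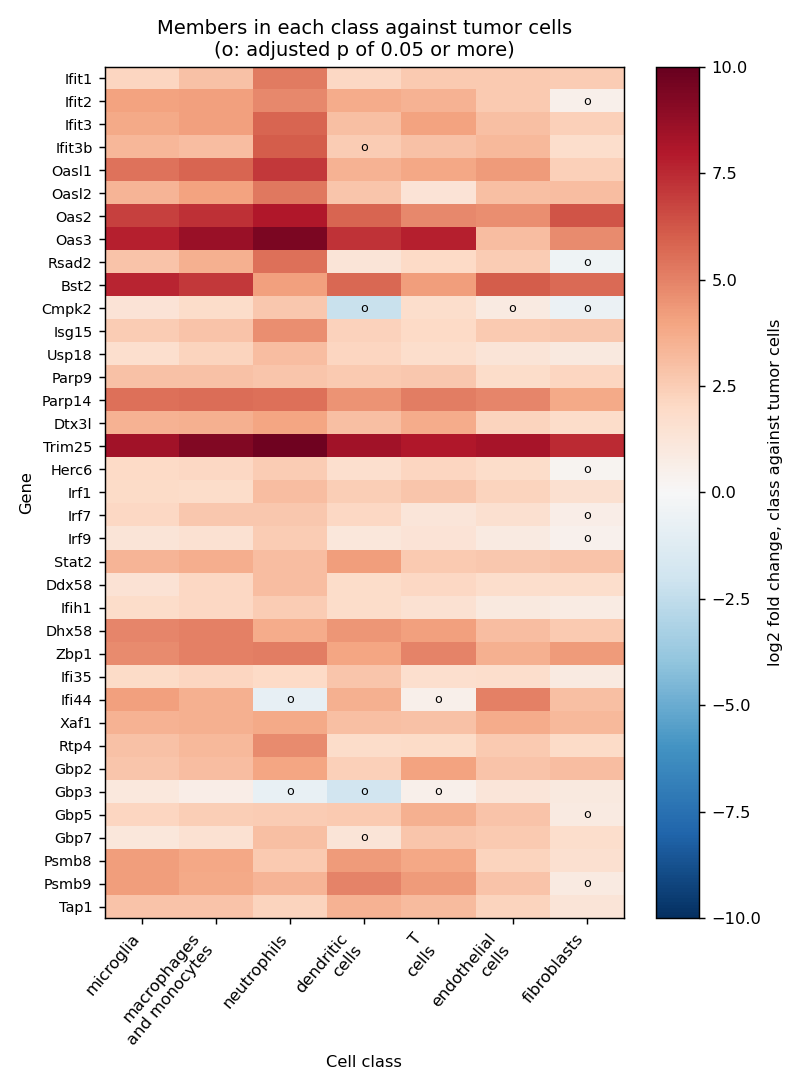
Log2 fold change of each member (rows, grouped by role) in each class (columns) against tumor cells of the same samples, from edgeR; red is higher in the class, and an open circle marks an adjusted p of 0.05 or more. Trim25 is the deepest red of each column, at 7.49 in fibroblasts to 9.75 in neutrophils.

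Among the signaling factors, Irf9 differed less between microglia and tumor cells than Stat2 did. Irf9, which gives the type I complex its DNA binding, averaged 59.6 ± 18.6 CPM (SD, n = 5) in tumor cells and 99.1 ± 15.7 CPM in microglia, a log2 fold change of 1.27 ± 0.13 (standard error, adjusted p = 9.07e-07). Stat2, its partner, averaged 16.7 ± 3.49 and 122 ± 38.2 CPM, with 3.37 ± 0.12 on the log2 scale (adjusted p = 1.25e-11). Irf7, the factor that amplifies interferon alpha production, gave the most UMIs of the members in tumor cells, at 292, 46.9 and 157 CPM in vehicle and 202 and 244 CPM in Xevinapant. Microglia had 762, 226 and 658 CPM in vehicle and 448 and 524 CPM in Xevinapant, above the tumor cells of the same sample in all 5 samples. In fibroblasts Irf7 did not pass, at 0.69 ± 0.34 (adjusted p = 0.0987).

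Of the nucleic acid sensors, Dhx58 (LGP2) and Zbp1 stood further from tumor cells than Ddx58 (RIG-I) and Ifih1 (MDA5). In macrophages and monocytes the log2 fold change was 5.05 ± 0.19 for Dhx58 and 5.04 ± 0.17 for Zbp1, against 2.06 ± 0.12 for Ddx58 and 2.07 ± 0.14 for Ifih1. Zbp1, which senses Z-form nucleic acids and can start necroptosis, had 15.3, 3.08 and 8.70 CPM in vehicle and 6.40 and 15.0 CPM in Xevinapant in tumor cells. In macrophages and monocytes it had 221, 105 and 203 CPM in vehicle and 174 and 278 CPM in Xevinapant. Ifih1, a sensor of long double-stranded RNA, was present in the tumor cells of every sample, at 61.0, 21.6 and 68.8 CPM in vehicle and 37.1 and 92.2 CPM in Xevinapant. In microglia Ifih1 had 176, 59.7 and 167 CPM in vehicle and 98.0 and 174 CPM in Xevinapant.

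Several antiviral effectors were close to 0 in tumor cells. Oas3, an enzyme that makes the oligoadenylates that switch on RNase L, had 0.616, 0.197 and 0.545 CPM in vehicle and 0.812 and 0.770 CPM in Xevinapant in tumor cells. Its microglial levels were 131, 22.6 and 101 CPM in vehicle and 104 and 89.7 CPM in Xevinapant, a log2 fold change of 7.74 ± 0.18 (adjusted p = 1.09e-13). Endothelial cells had less, 6.00, 0 and 8.64 CPM in vehicle and 9.01 and 2.34 CPM in Xevinapant, at 3.08 ± 0.92 against tumor cells (adjusted p = 0.00562), and the count of 0 in vehicle sample 2 allows up to 23.4 CPM. Oas2 of the same family averaged 1.66 ± 0.772 CPM (SD, n = 5) in tumor cells and 168 ± 43.7 CPM in macrophages and monocytes, and Oasl1 3.57 ± 1.92 and 130.4 ± 58.0 CPM. Bst2 (tetherin), which holds budding virus particles at the cell surface, gave the most UMIs of the members in microglia, at 3290.2, 2076 and 2999 CPM in vehicle and 3300.2 and 2929 CPM in Xevinapant. In tumor cells Bst2 had 29.7, 8.81 and 16.5 CPM in vehicle and 21.0 and 49.1 CPM in Xevinapant, and the log2 fold change of microglia was 7.59 ± 0.28 (adjusted p = 1.60e-11). Bst2 also gave the most UMIs in every sample of macrophages and monocytes, endothelial cells and fibroblasts, and in the dendritic cells of both Xevinapant samples.

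Neutrophils had high levels of Isg15, Rsad2 and Ifit3 per UMI of the class, and vehicle sample 1 and both Xevinapant samples had at least 10 of these cells. Isg15 gave the most UMIs of the members there, with 3922 CPM in vehicle sample 1 and 884 and 1904 CPM in the Xevinapant samples. Rsad2 (viperin), which makes a chain-terminating nucleotide, had 3631, 508 and 1861 CPM in the same samples, and Ifit3, which binds foreign RNA in a complex with Ifit1, had 2702, 424 and 1394 CPM. For all 3 genes the vehicle sample was highest and Xevinapant sample 1 lowest. Against tumor cells the log2 fold change was 4.63 ± 0.32 for Isg15, 5.54 ± 0.34 for Rsad2 and 5.84 ± 0.34 for Ifit3. Rsad2 and its neighbor Cmpk2, a nucleotide kinase of mitochondria, were not called in fibroblasts, at -0.40 ± 0.25 and -0.62 ± 0.28 (adjusted p = 0.194 and 0.0798).

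In the group of the ISG15 and ubiquitin pathway, Trim25, the ubiquitin ligase that acts on RIG-I, had the largest fold change of all members in each of the 7 classes. It had 0.582, 0.331 and 0.688 CPM in vehicle and 0.770 and 0.612 CPM in Xevinapant in tumor cells. Macrophages and monocytes had 239, 268 and 220.5 CPM in vehicle and 220.3 and 259 CPM in Xevinapant, a log2 fold change of 9.23 ± 0.21 (adjusted p = 8.98e-12). Parp14, a mono-ADP-ribosyltransferase, differed by 5.48 ± 0.25 in microglia, 4.85 ± 0.32 in endothelial cells and 3.81 ± 0.38 in fibroblasts. Parp9 and Dtx3l, which form a complex, differed by 2.91 ± 0.13 and 3.49 ± 0.18 in microglia. Usp18, which strips Isg15 from proteins and dampens the type I receptor, averaged 48.9 ± 24.1 CPM (SD, n = 5) in tumor cells and 109 ± 48.9 CPM in microglia, a log2 fold change of 1.68 ± 0.11. Herc6, the mouse ligase that attaches Isg15, averaged 29.0 ± 11.5 and 78.9 ± 27.6 CPM.

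The guanylate-binding proteins, GTPases that attack the vacuoles of pathogens, included the member with the smallest difference between microglia and tumor cells. Gbp3 averaged 48.6 ± 26.7 CPM (SD, n = 5) in tumor cells, 67.5 ± 18.3 CPM in microglia and 51.8 ± 22.3 CPM in macrophages and monocytes. Gbp7 averaged 19.5 ± 10.4, 29.9 ± 8.11 and 35.3 ± 14.4 CPM in the same classes. In dendritic cells, neutrophils and T cells Gbp3 was not called, at -1.88 ± 0.83, -0.72 ± 0.57 and 0.52 ± 0.39 (adjusted p = 0.0779, 0.307 and 0.327). For antigen processing, the immunoproteasome subunits Psmb8 and Psmb9 and the peptide transporter Tap1 were called higher in all 7 classes except Psmb9 in fibroblasts. Psmb8 averaged 623 ± 207 CPM (SD, n = 4) in T cells and 32.0 ± 17.7 CPM (SD, n = 5) in tumor cells. Among the remaining members, Ifi44 was at 5.07 ± 0.34 in endothelial cells, -0.83 ± 1.54 in neutrophils and 0.54 ± 0.99 in T cells. Xaf1, a partner of the inhibitor of apoptosis protein XIAP, was higher in every class, by 3.47 ± 0.21 in microglia and 3.73 ± 0.28 in endothelial cells. Rtp4, a chaperone of receptors, averaged 46.1 ± 21.5 CPM (SD, n = 5) in tumor cells and 231 ± 68.4 CPM in microglia.

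Between samples, the members varied together. In tumor cells, vehicle sample 2 had the lowest level of the 5 samples for 37 of 37 members, as it had for 26.4% of the 14437 genes tested. Its member levels had a median log2 ratio of -1.74 to the mean of the other vehicle samples, where all genes had a median of -0.04. Such ratios were taken after adding 1 to each CPM, so they understate differences of low genes. The ratio ran from -2.89 for Ifit3 to -0.30 for Trim25, and the middle 90% of all genes lay between -0.52 and 0.35. The sample was singled out after its values were seen, so these are descriptions with no test.

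Isg15 had 115, 18.6 and 99.0 CPM in vehicle and 61.7 and 121 CPM in Xevinapant in tumor cells. Usp18 had 65.4, 8.91 and 65.6 CPM in vehicle and 44.0 and 60.8 CPM in Xevinapant, and Oasl2, an oligoadenylate synthetase-like protein, had 49.5, 5.05 and 31.5 CPM in vehicle and 20.3 and 50.6 CPM in Xevinapant. In each of these genes vehicle sample 2 was lowest, Xevinapant sample 1 second lowest, and the groups overlapped. The same order at the low end was seen in Ifit3, with 37.7, 2.84 and 17.0 CPM in vehicle and 15.2 and 29.8 CPM in Xevinapant. Ifit1 had 18.4, 1.77 and 15.9 CPM in vehicle and 9.44 and 17.2 CPM in Xevinapant, and Gbp3 68.7, 11.0 and 69.0 CPM in vehicle and 29.6 and 64.6 CPM in Xevinapant. Xevinapant sample 1 lay below Xevinapant sample 2 for 33 of 37 members, with a median log2 ratio of -0.62, and -0.04 over all genes.

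Other members spread less. Irf1, a factor that interferon gamma induces, had 30.2, 20.8 and 25.3 CPM in vehicle and 36.7 and 37.6 CPM in Xevinapant, and Stat2 had 19.9, 11.3 and 15.3 CPM in vehicle and 19.4 and 17.7 CPM in Xevinapant. Among genes of the pathway outside the set, Ifnar2 of the type I receptor and Jak1 spread less still, while Ifnar1 of that receptor spread about as much as Stat2. Most further pathway genes were low in vehicle sample 2. It was lowest for 75 of 91 of them (all genes, 26.4%), with a median log2 ratio of -0.47 (all genes, -0.04). Ifnar1 had 85.6, 82.7 and 109.6 CPM in vehicle and 63.4 and 81.8 CPM in Xevinapant, Ifnar2 51.7, 47.6 and 51.8 CPM in vehicle and 55.4 and 50.5 CPM in Xevinapant and Jak1 52.4, 52.9 and 54.1 CPM in vehicle and 49.1 and 53.7 CPM in Xevinapant. Immune markers in the tumor cell sums were also lowest in vehicle sample 2. The 7 markers of immune cells as a whole summed to 40.8, 32.3 and 41.4 CPM in vehicle and 62.1 and 48.7 CPM in Xevinapant. Immune cells were 6.14%, 3.35% and 3.94% of the assigned cells in vehicle and 17.4% and 8.31% in Xevinapant, lowest in vehicle sample 2 and higher in both Xevinapant samples than in any vehicle sample. Their part in the members' levels was not tested.

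**Figure D3:**
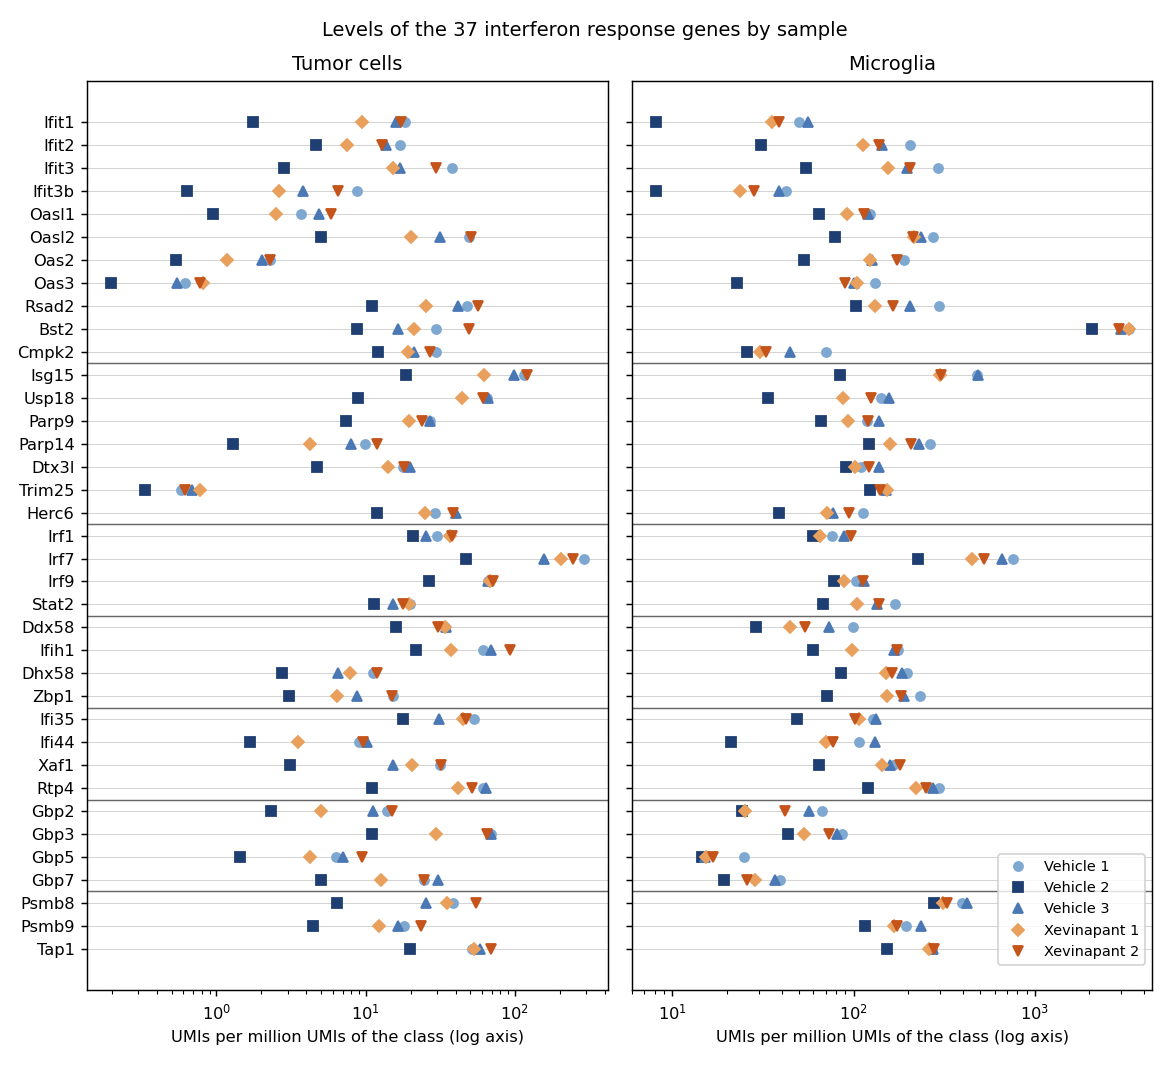
Levels of the 37 members (rows, grouped by role) in UMIs per 1000000 on a log axis, for tumor cells (left) and microglia (right), 1 point per sample. Vehicle sample 2 (dark square) is the lowest point for all 37 members in both panels.

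Myeloid cells of vehicle sample 2 were low as well. In microglia it was the lowest of 5 samples for 37 of 37 members (all genes, 26.6%), with a median log2 ratio of -1.27 to the other vehicle samples. Microglial Isg15 had 481, 83.9 and 484 CPM in vehicle and 299.5 and 303 CPM in Xevinapant, and Ifit1 49.8, 8.07 and 56.0 CPM in vehicle and 35.4 and 38.8 CPM in Xevinapant. Vehicle sample 2 lay below the other 4 samples in both genes. In macrophages and monocytes it was lowest for 33 of 37 members (all genes, 26.7%), with a median log2 ratio of -1.01. Isg15 there had 552, 185 and 339 CPM in vehicle and 274 and 502 CPM in Xevinapant, and Rsad2 716, 93.8 and 289 CPM in vehicle and 149 and 347 CPM in Xevinapant. The microglial markers of the microglia were 4179, 4182 and 3952 CPM in vehicle and 3765 and 4136 CPM in Xevinapant, highest in vehicle sample 2. The cause of the low levels in that sample was not tested.

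In endothelial cells vehicle sample 2 was not low, and in fibroblasts it was low to a smaller degree. In endothelial cells vehicle sample 2 was lowest for 4 of 33 members tested (all genes, 25.5%), and the median log2 ratio was 0.28. Endothelial Isg15 had 366, 561 and 242 CPM in vehicle and 333 and 466 CPM in Xevinapant, with the highest value in vehicle sample 2, where it rested on 19 cells. Endothelial Ifit1 had 18.0, 117 and 25.9 CPM in vehicle and 54.0 and 84.3 CPM in Xevinapant, again with vehicle sample 2 highest. In fibroblasts the sample was lowest for 14 of 31 members (all genes, 31.6%), with a median log2 ratio of -0.29 where all genes had -0.11. Fibroblast Isg15 had 369.8, 266 and 281 CPM in vehicle and 299 and 316 CPM in Xevinapant. The fibroblast score was 0.317, 0.271 and 0.293 in vehicle and 0.290 and 0.374 in Xevinapant, with the samples in the same order as in tumor cells. Whether the pattern differed between classes was not tested, since the sample was chosen for it.

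Within the tumor cells, a small share of cells held many members. Each tumor cell with at least 2000 UMIs was thinned to 2000 UMIs, and the members with a UMI were counted. No member was found in 32.3%, 64.4% and 30.1% of cells in vehicle and in 34.4% and 26.0% in Xevinapant. At least 10 members were found in 2.62%, 0.220% and 1.73% of cells in vehicle and in 1.29% and 2.88% in Xevinapant, 666 cells in all. Vehicle sample 2 thus had the most cells without a member and the fewest with many. The cells with at least 10 held 25.8%, 6.29% and 18.6% of the member UMIs in vehicle and 13.5% and 24.9% in Xevinapant. Without thinning, the share of tumor cells with at least 10 members was 6.31% in vehicle sample 2 and 26.5% to 41.3% in the others.

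With all their UMIs, the 666 cells had Irf7 in 98.5%, Isg15 in 96.5%, Oasl2 in 95.2% and Ifit3 in 89.0%. The remaining tumor cells had them in 51.4%, 35.0%, 19.2% and 10.7%. Trim25, which was high in myeloid cells, was found in 2.10% and 1.05%. These shares describe cells picked for the same genes and were not tested. The 7 immune markers averaged 67.0 CPM in the cells with at least 10 members and 45.4 CPM in the others, and 9969 to 11131 CPM in macrophages and monocytes. By sample, the cells with at least 10 members had 62.2, 134 and 73.8 CPM in vehicle and 69.4 and 62.0 CPM in Xevinapant. The other tumor cells had 36.9, 32.4 and 42.2 CPM in vehicle and 65.7 and 51.7 CPM in Xevinapant. The value of 134 CPM came from 11 cells. The assignment itself kept tumor cells low in these markers. Median depth was 18469 and 15634 UMIs.

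**Figure D4:**
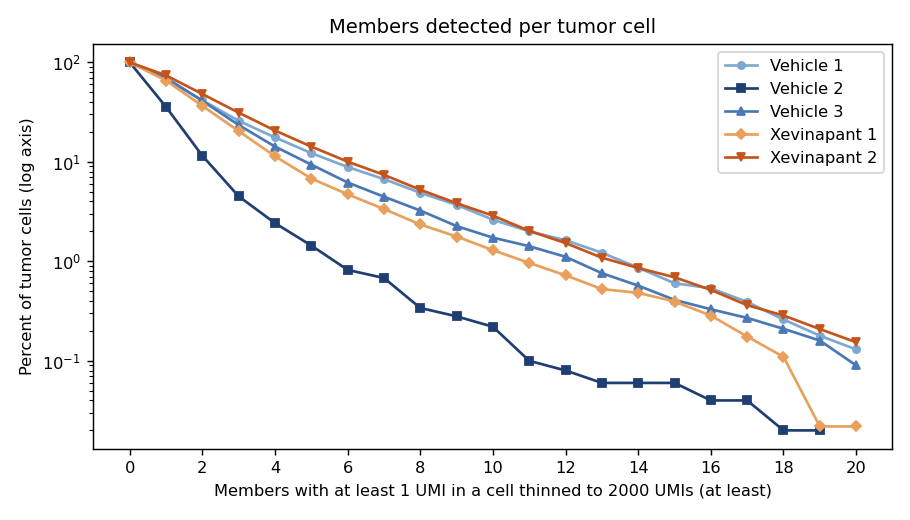
Percent of tumor cells (y, log axis) in which at least the given number of members (x) had a UMI after thinning to 2000 UMIs, 1 line per sample. Vehicle sample 2 drops fastest, to 0.220% at 10 members, while the other samples lie between 1.29% and 2.88%.

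The treatment comparison asked whether Xevinapant changed the response in each class. No member passed an adjusted p under 0.05 in edgeR's quasi-likelihood test in any of the 6 classes tested, in either direction. All 37 members were tested in tumor cells, microglia, and macrophages and monocytes, 33 in endothelial cells, 31 in fibroblasts and 24 in T cells. Of all genes tested, 0% were called in tumor cells, 0.01% in microglia, 0.0103% in macrophages and monocytes, 0.0114% in fibroblasts, 0.217% in endothelial cells and 0.489% in T cells. At an unadjusted p under 0.05 the members numbered 1 in tumor cells, 1 in fibroblasts, 5 in endothelial cells, 2 in T cells, and 0 in microglia and in macrophages and monocytes. These were 2.70%, 3.23%, 15.2%, 8.33%, 0% and 0% of the members tested, and of all genes 10.9%, 4.52%, 8.02%, 8.55%, 6.50% and 8.93% passed it in these classes. The share of all genes whose groups do not overlap is not given here, so statements on overlap below have no background beside them. DESeq2 called 0 members in each class. A test of whether the change in a class differed from that in tumor cells called 0 of 37 members in each of the other 5 classes, with a smallest adjusted p of 0.246 in microglia and 1 in fibroblasts. It called 0.166% of all genes in T cells, 0.223% in endothelial cells, 0.0353% in microglia, 0.00696% in macrophages and monocytes and 0% in fibroblasts. At an unadjusted p under 0.05 it gave 8 members in microglia, 4 in macrophages and monocytes, 3 in endothelial cells, 3 in T cells and 0 in fibroblasts, and 5.23%, 5.85%, 4.48%, 3.35% and 4.17% of all genes.

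**Figure D5:**
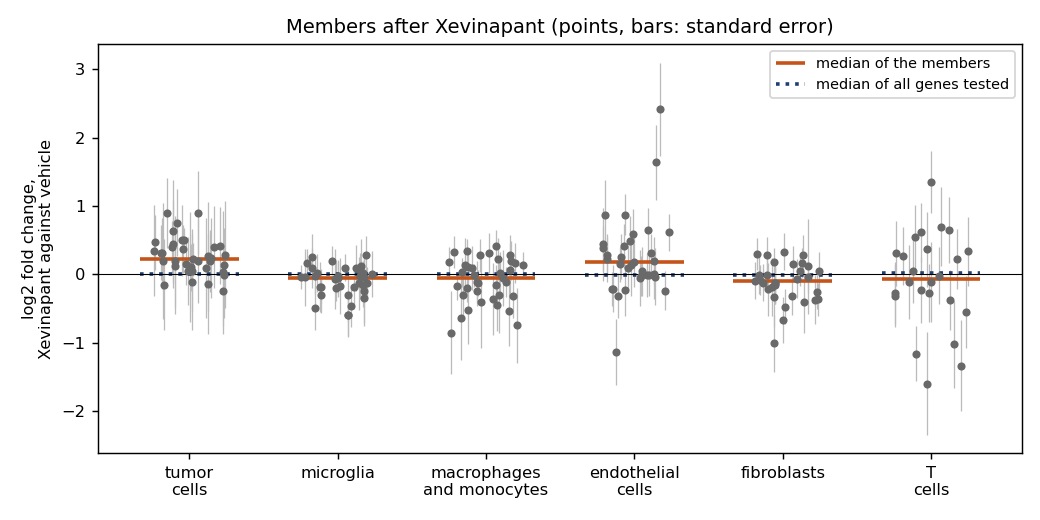
Log2 fold change of each tested member, Xevinapant against vehicle, in 6 classes (points, jittered sideways; bars are standard errors), with the medians of the members and of all genes. The medians of the members lie between -0.09 in fibroblasts and 0.22 in tumor cells.

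In tumor cells the log2 fold change was above 0 for 32 of 37 members, and its sign rested on single samples. Its median was 0.22, and 0.00 over all genes. Without vehicle sample 2 the median was -0.17, and without Xevinapant sample 2 it was -0.15. It was 0.54, 0.41 and 0.51 without vehicle samples 1 and 3 and Xevinapant sample 1. By role the median was 0.47 for antigen processing, 0.38 for signaling factors, 0.26 for sensors, 0.20 for antiviral effectors and -0.01 for guanylate-binding proteins. The spread between samples was wide, with a median standard error of 0.60 for the members and 0.18 for all genes.

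Tap1 had 51.4, 19.8 and 58.0 CPM in vehicle and 53.1 and 69.4 CPM in Xevinapant in tumor cells, a log2 fold change of 0.47 ± 0.40 (adjusted p = 0.653). Its groups overlapped. Ifi35 was at 0.40 ± 0.38 and Irf7 at 0.40 ± 0.60 (adjusted p = 0.687 and 0.808). The widest values were those of Psmb8, at 0.90 ± 0.61, and Bst2, at 0.89 ± 0.51 (adjusted p = 0.570 and 0.521). Isg15 was at 0.19 ± 0.66 (adjusted p = 0.928). Irf1, whose Xevinapant samples both lay above every vehicle sample, was the member with an unadjusted p under 0.05, at 0.51 ± 0.17 (adjusted p = 0.430).

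In microglia 12 members lay above 0 and 25 below, with a median of -0.05. Cmpk2 had 70.4, 25.8 and 44.8 CPM in vehicle and 30.6 and 32.7 CPM in Xevinapant, a log2 fold change of -0.60 ± 0.31 (adjusted p = 0.777). Gbp2 was at -0.59 ± 0.33 and Ddx58 at -0.49 ± 0.32 (adjusted p = 0.788 and 0.809). The groups overlapped for each of these genes. All 4 guanylate-binding proteins lay below 0, with a median of -0.24. The median of the members was -0.31 without vehicle sample 2, 0.09 without vehicle sample 1 and 0.08 without vehicle sample 3. Without vehicle sample 2, 3 of 37 members lay above 0. In edgeR 13 members then had an unadjusted p under 0.05, with a smallest adjusted p of 0.422. Without vehicle sample 1 or 3 that number was 0. The share of all genes in these settings is not given here.

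In macrophages and monocytes the median was -0.05. It was 0.20, -0.26 and 0.07 without vehicle samples 1, 2 and 3, and 0.18 and -0.26 without Xevinapant samples 1 and 2. Ifit2, a partner of Ifit1 and Ifit3, had 275, 32.0 and 206 CPM in vehicle and 53.2 and 153 CPM in Xevinapant, a log2 fold change of -0.85 ± 0.61 (adjusted p = 0.719). With no filter on low counts Ifit2 was called, at -0.82 ± 0.20 (adjusted p = 0.00392), a similar fold change with a smaller standard error. The share of all genes called with that setting is not given here, so the call has no background beside it. Rsad2 was at -0.63 ± 0.62 and Cmpk2 at -0.53 ± 0.52 (adjusted p = 0.810 and 0.809). Both the lowest and the highest level of these 3 genes came from vehicle samples. The macrophage and monocyte markers of these cells moved with the treatment, at 7723, 5748 and 5966 CPM in vehicle and 14358 and 10294 CPM in Xevinapant, and their part in the members' values was not tested.

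Endothelial cells had the values furthest from 0, from 19 to 52 cells per sample. Oas2 had 6.00, 7.80 and 25.9 CPM in vehicle and 72.0 and 67.9 CPM in Xevinapant, from 1, 1 and 3 UMIs in vehicle and 16 and 29 UMIs in Xevinapant. The log2 fold change was 2.41 ± 0.68 (adjusted p = 0.327). Oas2 passed the filter on low counts through its Xevinapant samples alone, so the lack of overlap between groups followed from the filter. Irf7 had 426, 398 and 207 CPM in vehicle and 720.4 and 604 CPM in Xevinapant, also without overlap, at 0.88 ± 0.29 (adjusted p = 0.485). Gbp2 had 24.0, 23.4 and 60.5 CPM in vehicle and 40.5 and 162 CPM in Xevinapant, at 1.64 ± 0.55 (adjusted p = 0.485), and its groups overlapped. Ifit2 went the other way, with 72.0, 109 and 69.1 CPM in vehicle and 13.5 and 53.9 CPM in Xevinapant, at -1.14 ± 0.48 (adjusted p = 0.571). Ifit2 passed the filter on low counts through its vehicle samples alone. With no filter on low counts Oas2 and Gbp2 were called (adjusted p = 0.0185 and 0.0288). The share of all genes called with that setting is not given here, so these calls have no background beside them. Without Xevinapant sample 1 the log2 fold change of Gbp2 was 2.20, which rests on a single Xevinapant sample. The median of the 33 members was 0.18. It was -0.02 without vehicle sample 1, -0.08 without Xevinapant sample 2 and 0.42 without Xevinapant sample 1.

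Markers of other classes in the endothelial sums were as follows. The 7 immune markers lay at 258, 444 and 354 CPM in vehicle and 319.7 and 333 CPM in Xevinapant, with the groups overlapping. The list of macrophage markers was lower in Xevinapant, and this was carried by Fn1, with 5383, 10948 and 5229 CPM in vehicle and 1153 and 1909 CPM in Xevinapant, and Thbs1, with 1824, 2300.4 and 1927 CPM in vehicle and 351 and 862 CPM in Xevinapant, genes that endothelial cells also express. The other 8 macrophage markers summed to 60.0, 7.80 and 25.9 CPM in vehicle and 40.5 and 21.1 CPM in Xevinapant, with F13a1 and Chil3 at 0 in every sample, which allows up to 7.03 CPM in the deepest sample and 25.9 CPM in the shallowest. Tumor markers lay at 528, 561 and 847 CPM in vehicle and 261 and 660.4 CPM in Xevinapant. Their part in the members' values was not tested.

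In fibroblasts the median of the 31 members was -0.09, and 0.03 without Xevinapant sample 1 and -0.29 without Xevinapant sample 2. Ifi44 had 45.0, 66.4 and 23.2 CPM in vehicle and 20.7 and 21.0 CPM in Xevinapant, with the groups not overlapping, a log2 fold change of -1.01 ± 0.42 (adjusted p = 0.980). Ifit1 was at -0.67 ± 0.34 and Irf7 at -0.47 ± 0.26, both with an adjusted p of 0.980.

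T cells of vehicle samples 1 and 3 and both Xevinapant samples could be compared, with 13, 20, 19 and 58 cells. Irf1 had 181 and 97.1 CPM in vehicle and 347 and 367 CPM in Xevinapant, a log2 fold change of 1.35 ± 0.45 (adjusted p = 0.363). Bst2 had 794 and 793 CPM in vehicle and 363 and 373 CPM in Xevinapant, at -1.16 ± 0.40 (adjusted p = 0.384). Irf1 and Bst2 were the members with an unadjusted p under 0.05. The groups did not overlap for either gene, which with so few samples can occur without any effect. Rsad2 had 681 and 97.1 CPM in vehicle and 49.5 and 165 CPM in Xevinapant, at -1.59 ± 0.75 (adjusted p = 0.609), and Ifih1 was at -1.34 ± 0.66 (adjusted p = 0.635). Some RNA of myeloid cells moved with this comparison. C1qa had 885 and 1667 CPM in vehicle T cells and 0 and 73.4 CPM in Xevinapant T cells, where the count of 0 allows up to 49.5 CPM. The 7 microglial markers had 295 and 842 CPM in vehicle and 99.1 and 153 CPM in Xevinapant. The 10 macrophage and monocyte markers had 771 and 939 CPM in vehicle and 561 and 825 CPM in Xevinapant, with the groups overlapping. The part of such RNA in the members' values was not tested.

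The rest of the pathway was read from 99 further measured genes, ordered from ligands to targets. None of the 8 interferon genes passed the filter on low counts in a class. Ifnb1, the first type I interferon made after infection, had 0.0428, 0.0103 and 0.00510 CPM in vehicle and 0.0211 and 0.0557 CPM in Xevinapant in tumor cells. In T cells, a known source of interferon gamma, Ifng had 22.7 and 80.9 CPM in vehicle and 0 and 422 CPM in Xevinapant, with up to 49.5 CPM allowed by the count of 0. Against tumor cells, microglia were higher in 5 of 5 tested receptors, 9 of 9 kinases and factors, 12 of 12 sensors and adaptors, 2 of 4 feedback genes and 56 of 60 further targets, with 2 targets lower (higher among all genes, 32.7%). Endothelial cells were higher in 5 of 5 receptors, 8 of 9 kinases and factors, 6 of 11 sensors and adaptors, 2 of 4 feedback genes and 49 of 57 further targets (all genes, 19.9%). They were lower in 1 sensor or adaptor, 1 feedback gene and 2 further targets. Ifnar2, a chain of the type I receptor, had 339, 302 and 344 CPM in vehicle and 368 and 337 CPM in Xevinapant in microglia, a log2 fold change of 3.23 ± 0.08 against tumor cells (adjusted p = 2.75e-13). Jak2, the kinase of the gamma receptor, was nearer, at 0.74 ± 0.13.

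After Xevinapant, 0 of 91 tested further genes were called in tumor cells, 0 of 88 in microglia, 0 of 86 in macrophages and monocytes, 0 of 67 in fibroblasts, 0 of 45 in T cells and 1 of 54 in endothelial cells (edgeR). At an unadjusted p under 0.05 they numbered 8, 5, 6, 9, 2 and 5 in the same order, where 10.9%, 6.50%, 8.93%, 4.52%, 8.55% and 8.02% of all genes passed it, and DESeq2 called 1 in tumor cells and 0 in each other class. The called gene was Cxcl9, a chemokine that interferon gamma induces and that draws T cells. Endothelial Cxcl9 had 36.0, 7.80 and 43.2 CPM in vehicle and 126 and 166 CPM in Xevinapant, from 6, 1 and 5 UMIs in vehicle and 28 and 71 UMIs in Xevinapant. Cxcl9 rose by 2.29 ± 0.42 on the log2 scale (adjusted p = 0.0290). It passed the filter on low counts through its Xevinapant samples alone, so the lack of overlap between groups is no added support. Genes that mark kinds of vascular cell were called in the same comparison. The venule genes Ackr1 and Selp rose by 4.88 ± 0.63 and 2.88 ± 0.56, and the mural cell gene Acta2 and the matrix gene Col8a1 were at -3.63 ± 0.66 and -3.17 ± 0.56, all with an adjusted p under 0.05. The 7 endothelial markers of these sums lay at 12164, 11112 and 10138 CPM in vehicle and 10937 and 10181 CPM in Xevinapant. The 6 mural cell markers lay at 252, 382 and 216 CPM in vehicle and 194 and 309 CPM in Xevinapant, with the groups overlapping. The part of a different mix of vascular cells in the Cxcl9 value was not tested. The call was lost when any 1 sample but Xevinapant sample 1 was left out, when each of the 8 matrices was taken as 1 mouse, in DESeq2, with no filter on cells, and with a stricter assignment of cells to classes. In fibroblasts Cxcl9 had 19.0, 11.1 and 39.7 CPM in vehicle and 46.7 and 163 CPM in Xevinapant, at 1.99 ± 0.55 (adjusted p = 0.845). Fibroblast Cxcl9 was called with no filter on low counts (adjusted p = 1.09e-07) and with each matrix as 1 mouse together with a replicate block on the matrix number (adjusted p = 0.0231). In T cells, with no filter on low counts, Cxcl9 was called lower in Xevinapant, at -6.18 ± 0.81 (adjusted p = 5.62e-11). The myeloid genes C1qa, C1qb and C1qc were called lower in these T cells with the filter, and the part of myeloid RNA in the Cxcl9 value was not tested. Without the filter Cxcl9 was called higher in macrophages and monocytes, at 1.75 ± 0.49 (adjusted p = 0.0280). In macrophages and monocytes the antiviral membrane protein Ifitm1 had 5.40, 4.58 and 8.59 CPM in vehicle and 33.4 and 39.4 CPM in Xevinapant, without overlap, at 2.52 ± 0.32 (adjusted p = 0.0635), and it was called with each matrix as 1 mouse and with the stricter assignment. In the main fit Ifitm1 also passed the filter on low counts through its Xevinapant samples alone. In tumor cells Socs3, a feedback inhibitor of cytokine receptors, had 27.0, 21.7 and 24.2 CPM in vehicle and 37.5 and 38.9 CPM in Xevinapant, at 0.61 ± 0.13 (adjusted p = 0.430), and was called by DESeq2 (adjusted p = 0.00407).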

How the data were processed

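UMI counts per gene and cell were measured in 2 pools with 4 matrices each. The authors deposited raw counts, made with Cell Ranger (7.1.0 in the file headers, 3.0 in the labels) and mm10, without the study's filters on cells. Barcodes with under 200 genes, over 10% mitochondrial UMIs or a complexity (log10 genes over log10 UMIs) under 0.8 were dropped, and those with the highest Scrublet scores (scanpy 1.11.5), 0.8% per 1000 barcodes, were removed as doublets, which left 51059 of 56943 barcodes. Classes were gated by summed marker UMIs per 10000 and a minimum number of markers, and 9486 cells had no class. Counts were summed per sample and class of at least 10 cells and tested in edgeR 4.0.16 (R 4.3.3) with TMM, its low-count filter, the quasi-likelihood test and Benjamini-Hochberg adjustment over all genes of the class at 0.05, after the script was tested on simulated data. The sample was a block when a class was set against tumor cells. The study's own test over cells was not used, since cells are not replicates. DESeq2 1.42.0, other filters and gates, each matrix as 1 mouse, and each sample left out were alternatives, and leaving out shared barcodes was added after seeing the data. The levels carry counting error and the spread between samples. The members, lists and rules were chosen with earlier results of these data known. Genes are named by rule where they passed the threshold (up to 8 members, or 4 further genes, per class), or else as the 3 members of largest fold change whose mean log2 CPM reached 5, and as the member with the highest mean level per class. Other named genes were chosen after their values were seen, as examples of their role.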

Additional observations from a re-analysis of the deposited data

How the results depend on the processing

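Of 281 repeats, 248 kept their value within 1.5 times for a count or 1 SD for a score (for the log2 scale, their sign). A score difference could change sign or vanish and still be counted as kept. Without vehicle sample 2 that of microglia went from 0.0385 to -0.0725, and that of tumor cells from 0.0356 to 2.02e-04. The tally thus does not measure whether score differences held. With no filter on low counts, 1 member (Ifit2, lower) was called in macrophages and monocytes and 2 in endothelial cells (Oas2 and Gbp2, higher). The other pathway genes called numbered 7 in macrophages and monocytes, 4 in fibroblasts, 2 in T cells and 2 in endothelial cells. For this and the other alternatives the share of all genes called is not given here, so these counts have no background beside them. Each matrix as 1 mouse gave 2 other pathway genes in tumor cells, 2 in macrophages and monocytes and 0 in endothelial cells. Each matrix as 1 mouse together with the replicate block on the matrix number gave 1 in macrophages and monocytes, 1 in fibroblasts and 0 in endothelial cells and changed no count of members after Xevinapant. The numbers name matrices of different pools and pair no animals. DESeq2 gave 1 in tumor cells and 0 in endothelial cells, no cell filter 0 in endothelial cells, and the stricter gate 1 in macrophages and monocytes and 0 in endothelial cells. Leaving out 1 sample gave 0 to 1 members and 0 to 4 other pathway genes in endothelial cells, and 0 to 1 other pathway genes in macrophages and monocytes. Members higher than in tumor cells then numbered 32 to 35 in T cells, 35 to 37 in endothelial cells, 29 to 30 in fibroblasts and 36 to 37 in macrophages and monocytes. With the stricter gate they numbered 30 in T cells and 29 in endothelial cells, where the main gate gave 35 and 36. The score difference, Xevinapant minus vehicle, was 0.0356 in tumor cells, 0.0385 in microglia, 0.0637 in macrophages and monocytes, 0.0412 in endothelial cells, 0.0385 in fibroblasts and 0.0102 in T cells, and with 1 sample left out 2.02e-04 to 0.0643, -0.0725 to 0.100, -3.90e-04 to 0.124, -0.0301 to 0.113, -0.00325 to 0.0802 and -0.0131 to 0.0335. The stricter gate gave 0.123 in T cells and -0.0209 in endothelial cells, and each matrix as 1 mouse -0.0281 in T cells. As the log2 of the summed CPM of the members, another scale, the difference was 0.540 in tumor cells, 0.102 in microglia, 0.0530 in macrophages and monocytes, 0.194 in endothelial cells, -0.0956 in fibroblasts and -0.138 in T cells. With each cell thinned to 2000 UMIs the score difference was 0.0242 in tumor cells, 0.00839 in microglia, 0.0381 in macrophages and monocytes, -0.0105 in endothelial cells and 0.0151 in fibroblasts. The cause of these changes was not tested. Where leaving out a sample leaves a class with 1 sample in a group, that sample is assumed to vary like the others.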
